A study of Mus musculus with 8 samples.

Results

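Transcripts of 10 proteins of the extracellular matrix were followed in whole mouse liver: the small leucine-rich proteoglycans lumican (Lum), decorin (Dcn) and biglycan (Bgn), the large proteoglycan versican (Vcan), fibronectin (Fn1), the elastic fibre proteins elastin (Eln) and fibrillin-1 (Fbn1), and the matricellular proteins SPARC (Sparc), thrombospondin-1 (Thbs1) and periostin (Postn). They were chosen by name, as 10 of the 22052 genes in the deposited table. The samples were livers of 8 adult male C57BL/6 mice, 8 weeks old, all given corn oil by intraperitoneal injection and all homozygous for floxed Zfp36l1 and Zfp36l2. The 4 controls carried no Cre, and the 4 double knockouts (dKO) carried Alb-Cre, a recombinase under the albumin promoter that acts in hepatocytes. Whether the alleles of other liver cells, bile duct cells among them, stayed in place was not tested. No group without floxed alleles and no Cre-only group was analysed here.

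ZFP36L1 and ZFP36L2 recognise AU-rich stretches of the 3' untranslated regions (UTRs) of transcripts and bring about their decay. Small leucine-rich proteoglycans sit on collagen fibrils and set their diameter and spacing, versican binds hyaluronan, and fibronectin, fibrillin and elastin form fibrils that anchor cells and store growth factors. Matricellular proteins are secreted into the matrix but act on cells and on matrix assembly more than as its scaffold. In liver, hepatocytes make the fibronectin of blood plasma, while stellate cells, portal fibroblasts and other stromal cells are the main source of most of the other proteins, which are known for their increase in fibrosis.

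The targeted genes were looked at first, as a check of the labels, and dKO livers held Zfp36l1 at 16.5% and Zfp36l2 at 50.3% of the control mean. Groups did not overlap for either gene (exact permutation test, 2-sided, p = 0.0286, the smallest value that 4 against 4 livers allow). Libraries held 15253827 to 19299556 reads assigned to genes, and control 4 was the shallowest. The level of a gene is given here as normalised read count, the reads divided by 1 size factor per library, and 3 reads correspond to 2.55 to 3.43 such units. A log2 change compares the group means of log2(value + 0.5), dKO against control. The added 0.5 makes changes at low read numbers smaller. Where the livers of a group are uneven, this change can also differ from the ratio of the group means, in either direction. That ratio is given as a fold. Transcripts of the mitochondrial genome made up 4.06% to 4.74% of each control library and 3.09% to 3.70% of each dKO library. The part of this difference in the results below was not tested. In bulk tissue, fewer cells of a type and less RNA per cell cannot be told apart, and the same holds for a rise.

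The AU-rich heptamer that the deleted proteins bind, TATTTAT, was searched first, on the transcript strand of annotated 3' UTRs (GENCODE release M21, GRCm38). It stood in 3 of the 10 genes, at 5 places, and in 29.9% of the 15515 tested genes with an annotated 3' UTR. The 5 places are shown because they are the only matches among the 10 genes, each 5′ to 3′ with up to 11 bases on either side and the heptamer in capitals. The coordinates are those of the heptamer.
Fn1, chr1:71585691-71585697, minus strand: tacctgtttgtTATTTATcaatttttccc
Thbs1, chr2:118126042-118126048, plus strand: acaatgtaataTATTTATtttgttcccct
Thbs1, chr2:118126166-118126172, plus strand: taaatacagatTATTTATtaaccctgttc
Thbs1, chr2:118127126-118127132, plus strand: atggaagtttaTATTTATa
Vcan, chr13:89655434-89655440, minus strand: atacttccctgTATTTATattataacatg
The second place in Thbs1 is also the 1 match of the longer element TTATTTATT, which overlaps the heptamer and stood in 8.20% of the tested genes with a 3' UTR. No TATTTAT was found in the annotated 3' UTRs of Lum, Dcn, Bgn, Sparc, Fbn1, Eln or Postn. A match describes letters only.

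All 10 transcripts rose in dKO livers by limma's test (adjusted p under 0.05), where 21.2% of the 20055 genes tested were called higher and 17.0% lower. Their median log2 change was 1.89, beside 0.03 over all genes tested, and without control 4 all 10 were again called, with a median of 2.07. For 8 of the 10 every dKO liver lay above every control liver, as did 19.4% of all genes tested. Elastin and versican are the 2 with overlap. The filter on low values (a mean of 0.5 or more over the 8 livers) left in all 10, and the lowest control mean among them was 24.1. The gene with the smallest change, Fn1, stood above 66.5% of the tested genes in log2 change and the one with the largest, Vcan, above 98.5%. That Vcan came first depended on the measure. By the ratio of group means Lum rose most (6.18-fold, against 3.32-fold for Vcan). With DESeq2 the log2 change was 2.63 for Lum and 1.73 for Vcan.

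**Figure D1:**
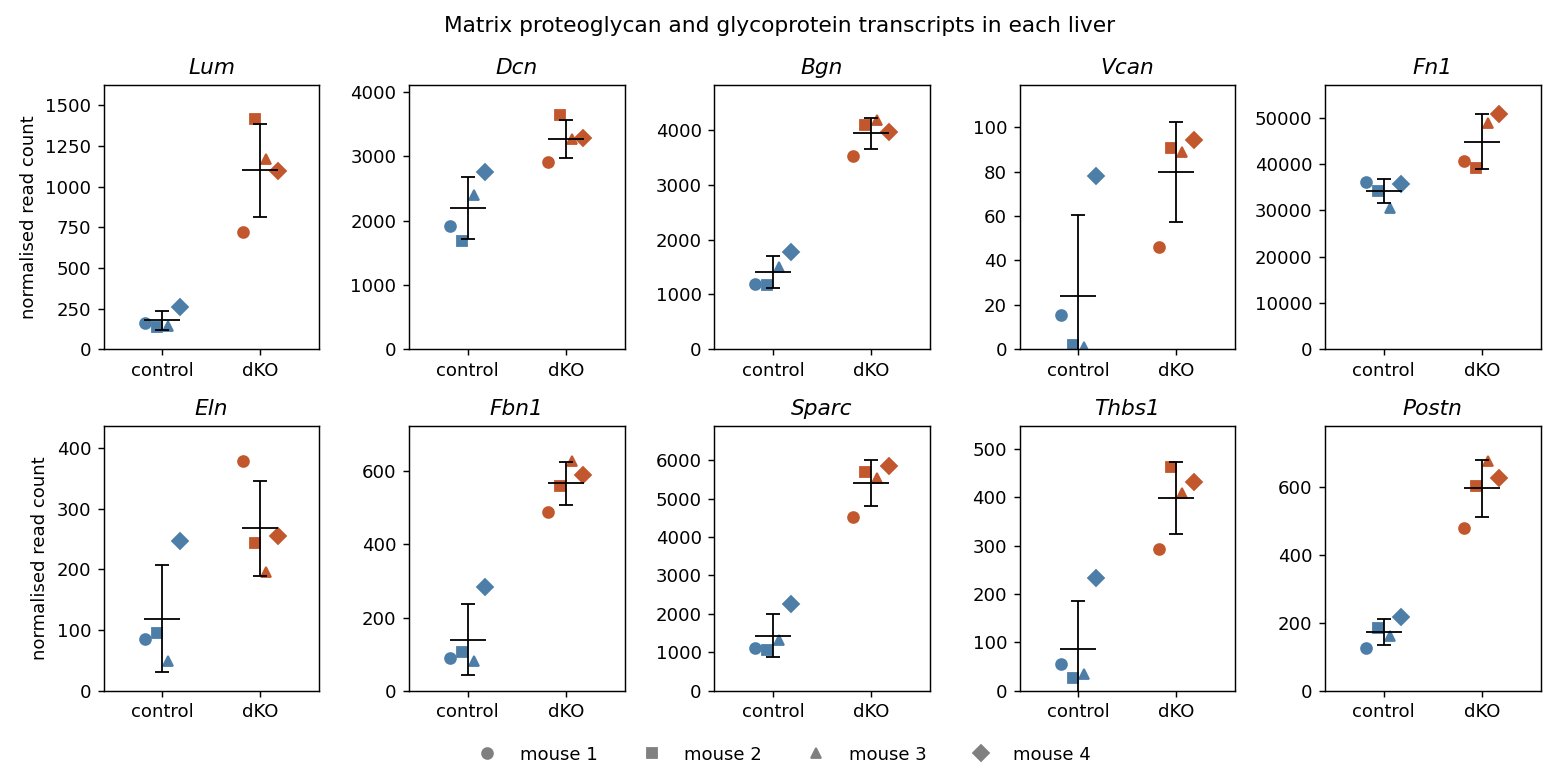
Normalised read count of each of the 10 transcripts in the 4 control (blue) and 4 dKO (orange) livers, 1 panel per gene with its own linear axis from 0; symbols give the mouse number within its group, and black bars the mean and SD. Control 4 is the highest control for 9 of the 10 genes, and Eln and Vcan are the panels in which the groups overlap.

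Among the small leucine-rich proteoglycans, lumican rose most and decorin least. Lumican, which regulates the spacing of collagen fibrils, held 162, 141, 145 and 263 normalised read counts in control livers (mouse 1 to 4) against 718, 1412, 1170.1 and 1096 in dKO livers (likewise). The lowest dKO liver, dKO 1, held well over the highest control. Its mean went from 178 ± 57.6 to 1099 ± 288 (SD over 4 livers, here and for all levels that follow), 6.18-fold (log2 change 2.63, SE 0.22, limma adjusted p = 1.8e-06). The gene lies on chromosome 10 (chr10:97565128-97572703, plus strand, GRCm38), next to Dcn (chr10:97479609-97518143, plus strand).

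Decorin, which binds collagen and also sequesters TGF-β, held 1925, 1692, 2407 and 2764 in control and 2909, 3639.9, 3269 and 3280.2 in dKO livers. The groups did not overlap, but control 4 came close to dKO 1. The rise was 1.49-fold, from 2197 ± 481 in control to 3275 ± 298 in dKO livers (by 0.60 on the log2 scale, SE 0.13, limma adjusted p = 0.00353).

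Biglycan is the closest relative of decorin and can also signal through Toll-like receptors when it is set free. Livers held 1184, 1171, 1496 and 1779.5 in control and 3523, 4084, 4169 and 3959 in dKO livers. Here the lowest dKO liver lay far above the highest control. The mean went from 1407 ± 290.0 to 3933 ± 287, a 2.79-fold rise (log2 change 1.502, SE 0.12, limma adjusted p = 1.7e-06). Bgn is X-linked (chrX:73483602-73495933, plus strand), and all mice were male.

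Versican, a large chondroitin sulfate proteoglycan that binds hyaluronan and is abundant in provisional matrix, had the fewest reads of the 10. Controls 1 to 4 held 15.4, 2.05, 1.05 and 77.8 normalised read counts, and dKO 1 to 4 held 46.3, 90.6, 88.6 and 94.0. Control 4 exceeded dKO 1, and controls 2 and 3 were below the 3-read level. The mean rose 3.32-fold, from 24.1 ± 36.4 in control to 79.9 ± 22.5 in dKO livers. As the controls are uneven, the mean of the logs moved further (log2 change 3.21, SE 0.95, limma adjusted p = 0.0174). Its call was lost with DESeq2 (adjusted p = 0.237, log2 change 1.73), with edgeR (0.0722, 1.75), with robust variances in limma (0.0959) and without control 2 (0.0571). The log2 change was 4.28 without control 4 and 2.40 without control 3, so its size is poorly fixed by these livers (95% interval 1.15 to 5.27).

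Fibronectin, an adhesive glycoprotein that hepatocytes secrete into plasma and stromal cells lay down as fibrils, was by far the most abundant of the 10. Controls held 36208, 34236, 30453 and 35690.2 normalised read counts and dKO livers 40629.5, 39078, 48922 and 50898. The groups lay side by side without overlap. From 34147 ± 2600.1 to 44882 ± 5896 the rise was 1.31-fold (log2 change 0.39, SE 0.12, limma adjusted p = 0.0182). Without control 3 the adjusted p was 0.0546 and without dKO 4 it was 0.0588, so the call rests on each of these livers. Fn1 (chr1:71585520-71653200, minus strand) is the only one of the 10 for which control 4 was not the highest control.

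The transcripts of the elastic fibre proteins rose with different degrees of certainty. Fibrillin-1, the main protein of microfibrils, which hold latent TGF-β, stood at 88.3, 105, 79.9 and 284 in control and at 489, 561, 628 and 589 in dKO livers. Control 4 held 3.12 times the mean of the other controls and was still below every dKO liver. The mean went from 139 ± 96.9 in control to 567 ± 59.0 in dKO livers (by 2.23 on the log2 scale, SE 0.31, limma adjusted p = 0.000114).

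Elastin, the core of the elastic fibre, held 85.2, 94.4, 48.4 and 247 in control and 379, 243, 195 and 255 in dKO livers. Control 4 exceeded dKO 2 and dKO 3, so 2 of the 4 dKO livers lay above the highest control. In contrast to most of the other genes, dKO 1 was the highest dKO liver. The mean went from 119 ± 87.8 in control to 268 ± 78.4 in dKO livers (by 1.39 on the log2 scale, SE 0.38, limma adjusted p = 0.0116), and the call was lost with DESeq2 (0.0591) and with robust variances (0.07).

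Each matricellular transcript rose without overlap between the groups. SPARC, a collagen-binding protein that takes part in the assembly of collagen into fibrils, held 1113, 1054, 1308 and 2261 in control and 4528, 5695, 5545 and 5851 in dKO livers. The lowest dKO liver held far more than the highest control, which was again control 4. Its mean rose 3.77-fold, from 1434 ± 562 in control to 5405 ± 598 in dKO livers (by 1.98 on the log2 scale, SE 0.19, limma adjusted p = 7.2e-06).

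Thrombospondin-1 activates latent TGF-β and inhibits angiogenesis. Livers held 54.4, 25.6, 34.7 and 233 in control and 293, 462, 409.6 and 432 in dKO livers. Control 4 lay apart, at 6.10 times the mean of the other controls and not far below dKO 1. The mean went from 87.0 ± 98.3 in control to 399 ± 74.2 in dKO livers (by 2.75 on the log2 scale, SE 0.51, limma adjusted p = 0.000988), and the log2 change was 3.41 without control 4.

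Periostin, which supports the crosslinking of collagen and binds integrins, held 126, 186, 160 and 217 in control and 479.7, 605, 678 and 627 in dKO livers. The groups stood apart, with the dKO values well above all controls. The rise was 3.47-fold, from 172 ± 38.6 in control to 597 ± 84.1 in dKO livers (by 1.81 on the log2 scale, SE 0.16, limma adjusted p = 3.1e-06).

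**Figure D2:**
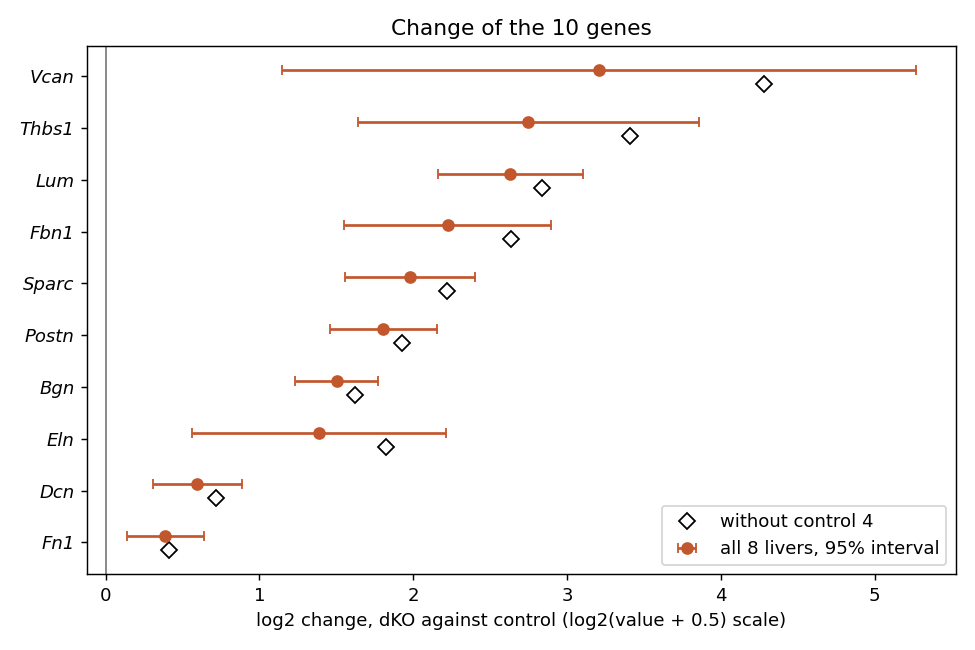
Log2 change of each transcript, dKO against control, with its 95% interval from limma over all 8 livers (filled) and the change without control 4 (open). Intervals are widest for Vcan, Thbs1 and Eln, and leaving out control 4 moves Vcan from 3.21 to 4.28 and Thbs1 from 2.75 to 3.41.

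RefSeq promoter windows (GRCm38.p6, 250 bases before to 50 after the start) were given for 5 of the 10 genes: Bgn, Sparc, Fbn1, Vcan and, with 2 windows, Postn. Of 4 motifs searched on both strands, the TATA box TATAAA, the CCAAT box, the TEAD element GGAATG and the AP-1 element TGANTCA, the first was found in 1 Postn window, 26 bases before its start. That window is shown because it was the only one of the 6 with a TATA box, with the motif in capitals.
Postn, chr3:54360857-54361156, plus strand: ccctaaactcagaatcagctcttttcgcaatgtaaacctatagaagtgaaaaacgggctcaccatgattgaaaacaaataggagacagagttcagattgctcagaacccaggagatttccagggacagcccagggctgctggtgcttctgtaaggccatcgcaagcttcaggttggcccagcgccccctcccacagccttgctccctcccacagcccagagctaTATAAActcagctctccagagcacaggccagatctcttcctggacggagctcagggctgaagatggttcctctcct
TATAAA stood in 13.6% of all 32851 windows of this length. CCAAT was found in the Vcan window and in the other Postn window, against 37.4% of all windows. Neither the AP-1 element (7.81% of all windows) nor the TEAD element (14.7%) was in any of the 6.

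The order of abundance was compared per kilobase of exon, with the exons of protein-coding transcripts joined for each gene. In controls the normalised read count per kb was 4027 ± 307 for Fn1, 1045 ± 229 for Dcn, 582 ± 120 for Bgn, 527 ± 207 for Sparc and 72.6 ± 23.5 for Lum. Below these stood Postn at 52.4 ± 11.7, Eln at 30.8 ± 22.8, Thbs1 at 14.9 ± 16.8, Fbn1 at 11.6 ± 8.07 and Vcan at 1.73 ± 2.62. Control ranges of neighbours overlapped for Bgn and Sparc and from Lum to Fbn1. In dKO livers Fn1 was again first (5293 ± 695), but Sparc (1986 ± 220), Bgn (1626 ± 119) and Dcn (1557 ± 142) followed in the reverse of their control order, with overlap between Sparc and Bgn and between Bgn and Dcn, as between Eln and Thbs1 and between Thbs1 and Fbn1 further down. Lum held 449 ± 117 per kb, Postn 182 ± 25.6, Eln 69.6 ± 20.4, Thbs1 68.3 ± 12.7, Fbn1 47.2 ± 4.91 and Vcan 5.75 ± 1.62. When the exons of all annotated transcripts were joined, Sparc came before Dcn in controls as well, and Eln stood behind Thbs1 and Fbn1 in dKO livers.

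The share of each transcript in their summed level per kb was compared next. Fibronectin took 63.6% ± 6.02 of the summed level per kb of the 10 genes in controls and 46.9% ± 3.53 in dKO livers. The other 9 together went from 2338 ± 613 to 5991 ± 586 per kb, 2.56-fold. Among these 9, decorin went from 45.04% ± 3.06 to 26.0% ± 0.957, SPARC from 22.1% ± 2.68 to 33.1% ± 1.14 and lumican from 3.10% ± 0.417 to 7.40% ± 1.33. Each of these comparisons gave p = 0.0286 in a 2-sided exact permutation test, the smallest possible, with no adjustment for the number of comparisons. Biglycan held 25.1% ± 1.51 and 27.2% ± 1.09 (exact permutation p = 0.0857). Shares of elastin were 1.25% ± 0.612 and 1.20% ± 0.491 (exact permutation p = 0.886). For the shares of Fbn1, Postn, Thbs1 and Vcan the exact permutation p was 0.0571, 0.114, 0.143 and 0.486. Shares of 1 sum depend on each other, so these are not separate results, and their sizes rest on the exon lengths taken.

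Whether 2 of the genes changed by different amounts was asked within livers, for all 45 pairs. The ratio of biglycan to decorin was 0.615, 0.692, 0.622 and 0.644 in control livers against 1.21, 1.12, 1.28 and 1.21 in dKO livers. Ratios varied little within a group, and control 4 was not apart from the other controls. The log2 changes of the pair differed by 0.90 (SE 0.05). For lumican and decorin the ratio was 0.0843, 0.0831, 0.0603 and 0.0952 in controls and 0.247, 0.388, 0.358 and 0.334 in dKO livers, a difference of 2.04 (SE 0.20) between their log2 changes. The ratio of SPARC to decorin went from 0.641 ± 0.123 to 1.65 ± 0.11 and that of periostin to decorin from 0.0801 ± 0.0206 to 0.182 ± 0.0206. Of the 45 pairs, 16 reached an exact permutation p = 0.0286, the smallest the design allows. Adjusted over the 45 pairs this was 0.0804, so 0 pairs passed the threshold of 0.05, and more pairs would have to reach that smallest p before any could pass. All 16 pairs contain Fn1, Dcn, Lum or Bgn, but so do most of the 45 pairs, and these genes were named after the pairs were seen.

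**Figure D3:**
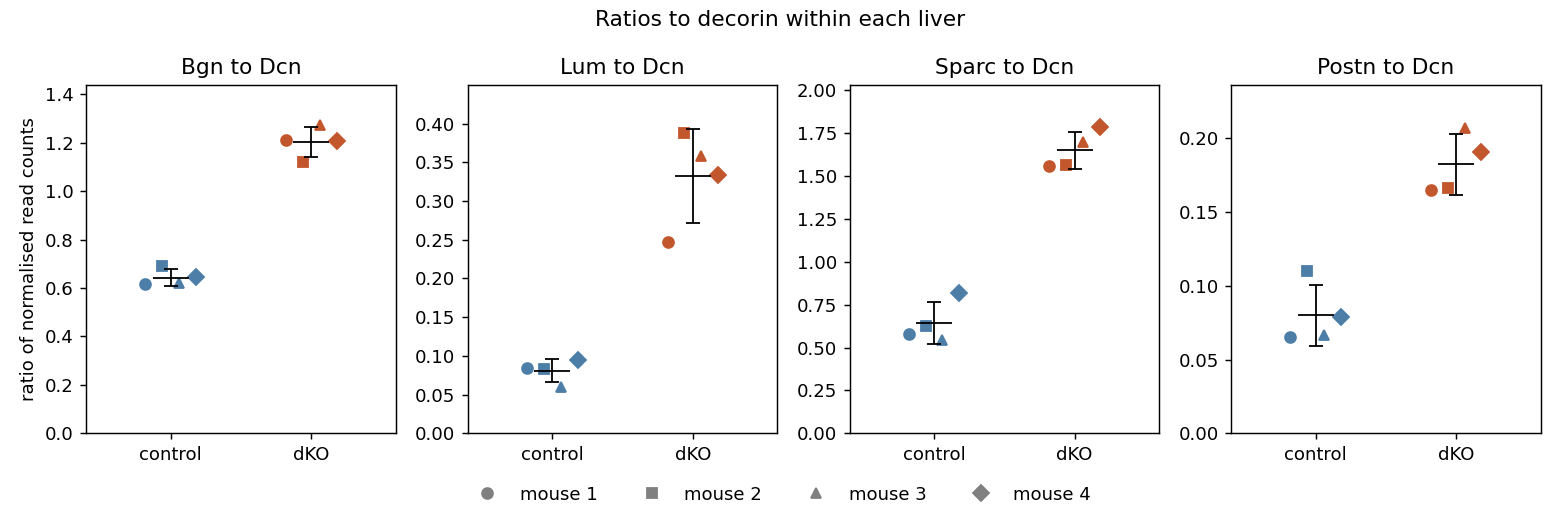
Ratio of the normalised read counts of Bgn, Lum, Sparc and Postn to that of Dcn in each liver, with the mean and SD of each group; axes are linear from 0 and symbols give the mouse number. The groups do not overlap in any of the 4 panels, and for Bgn to Dcn control 4 (0.644) lies among the other controls.

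As a description chosen after these values were seen, limma was fitted to the log2 values of every gene relative to decorin in the same liver. Decorin and fibronectin, the references used here, had the smallest log2 changes of the 10 (0.60 and 0.39). That the remaining genes lay above both was therefore set by this choice, and only the size of each difference is described. Here 40.5% of the 20054 other genes differed from decorin in either direction, so a call against decorin is common. Lumican (difference of log2 changes 2.04, SE 0.23, limma adjusted p = 0.00102), biglycan (0.90, SE 0.16, adjusted p = 0.00649), SPARC (1.38, SE 0.20, adjusted p = 0.00271), fibrillin-1, periostin and thrombospondin-1 rose more than decorin. Fibronectin (-0.21, 95% interval -0.76 to 0.34), elastin (0.79, -0.26 to 1.84) and versican (2.61, 0.20 to 5.02) were not called, with adjusted p-values of 0.502, 0.19 and 0.0767 by limma. The intervals leave room for sizable differences, for versican above all, which was called without control 4 (3.57, limma adjusted p = 0.0113). Relative to fibronectin the same 6 genes rose more, where 39.3% of all other genes differed, and decorin was not called (0.21, 95% interval -0.29 to 0.71). Without control 4 elastin and versican also rose more than fibronectin (limma adjusted p = 0.0193 and 0.0093).

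Livers of 1 group differed in a way shared by most of the 10 genes. Control 4 was the highest control for 9 of the 10, and its median log2 deviation from the control mean was 0.67, against -0.19, -0.27 and -0.20 in controls 1 to 3. In the dKO group, dKO 1 was the lowest liver for 8 of the 10, with a median deviation of -0.23. Sums of the fixed marker lists were also high in control 4 for smooth muscle and myofibroblasts (1494, against 210 to 628 in controls 1 to 3), mesothelial cells (398, against 46.3 to 190.0), macrophages (10121, against 6743 to 7836), platelets and megakaryocytes (239, against 97.5 to 127), bile duct cells (276, against 158 to 184) and portal fibroblasts (2157, against 1343 to 1909.9). The sum of hepatocyte markers was also highest in control 4 (1236462, against 1115647 to 1178397). For stellate cells control 4 held 3036, within the 2263 to 3159 of the other controls, and for endothelial cells 5614, within their 4482 to 5727. The part of these cells in the values of control 4 was not tested.

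The genes whose profile over the 8 livers was most like the mean of the 10, among 12825 protein-coding genes, were Col1a2 (Pearson r = 0.999), P3h4, Basp1, Col3a1 and Vim. Since the groups stand apart, likeness was also taken after the group means were subtracted. The closest genes were then P3h4 (r = 0.996), Col1a2, Mmp17, Ckap4 and Basp1. These values describe 8 livers, were the highest of many and have no test. Control 4 weighs on them, since it deviates most. Vcan and Thbs1 weigh more than the other genes, since the log2 values were averaged without scaling. In control 4 they deviated by 3.22 and 2.00 from the control mean, against 0.07 for Fn1.

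Other genes of the matrix, in lists set by name, were examined beside the 10. Of 136 tested, 74 rose, 15 fell and 47 did neither, with a median log2 change of 0.71 (81 higher and 12 lower without control 4). Over all genes tested 21.2% were called higher and 17.0% lower, the share to set beside each list that follows. The 15 of 136 that fell are fewer than that share, and 2 of 12 or 5 of 39 lower do not exceed it. Of the 12 other small leucine-rich proteoglycans tested, 5 rose, 2 fell and 5 did neither (median 0.57), and with quantile normalization 3 rose and 3 fell. Prelp, which links collagen to basement membranes, rose from 680.3 ± 97.4 to 2191 ± 281 (log2 change 1.69), and fibromodulin (Fmod), which binds collagen at the site that lumican shares, from 58.0 ± 25.7 to 146 ± 14.3. Podn went from 120 ± 29.2 to 173 ± 19.0, a call lost with quantile normalization (limma adjusted p = 0.119) and without control 1, control 2 or dKO 1. Nyx had 0 reads in all controls and at most 6.03 normalised read counts in a dKO liver.

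Among versican relatives and hyaluronan genes, 5 of 12 rose and 2 fell (median 0.80). The hyaluronan receptor Cd44 rose from 231 ± 121 to 635 ± 102 (log2 change 1.57), and lubricin (Prg4) from 1452 ± 292.5 to 2473 ± 227. Srgn, the proteoglycan of secretory granules in blood cells, went from 170.0 ± 82 to 312 ± 63.6, with overlap. Tnfaip6, which modifies hyaluronan in inflammation, stood at 1.34 ± 1.58 and 15.6 ± 11.1. Each of the 5 tested proteases that cleave versican rose (median 1.33). Adamts1 went from 182 ± 33.5 to 406 ± 68.8, Adamts5 from 60.6 ± 22.0 to 147 ± 24.1, Adamts9 from 53.2 ± 33.5 to 137 ± 22.4 and Adamts4 from 12.1 ± 5.79 to 66.5 ± 14.2.

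Heparan sulfate proteoglycans went both ways, with 4 of 12 higher and 4 lower (median 0.36). Syndecan-3 (Sdc3) rose from 1520 ± 127 to 2729 ± 358 and perlecan (Hspg2), of the basement membrane, from 861 ± 81.2 to 1422 ± 218. Syndecan-4 (Sdc4) fell from 10746 ± 567 to 6841 ± 720 and syndecan-2 (Sdc2) from 3575 ± 152 to 2609 ± 169. Of 39 genes that build glycosaminoglycan chains, 16 rose and 5 fell (median 0.28, or 0.09 with quantile normalization). Hs6st1, a heparan sulfate sulfotransferase, rose from 2754 ± 181 to 4083 ± 173, while Ndst1, which starts the sulfation of the chain, fell from 4113 ± 295 to 2657 ± 209. Extl1, a further gene of chain synthesis, fell by 2.09 on the log2 scale. Hs6st2 had 0 or 1 read in each control and 32.4 ± 19.3 in dKO livers.

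Of the other elastic fibre genes, 15 of 21 rose and 1 fell (median 1.42). Ltbp2, which competes with latent TGF-β binding proteins for fibrillin-1, rose from 31.5 ± 15.0 to 319 ± 56.6 (log2 change 3.41), the elastogenesis factor Efemp2 from 57.5 ± 9.22 to 198 ± 26.2, Emilin1 from 466 ± 121 to 1453 ± 279 and the collagen and elastin crosslinking enzyme Loxl2 from 68.0 ± 29.6 to 363 ± 73.6. The 1 that fell was Loxl4. Of 24 other matricellular genes, 15 rose and 1, Ccn6, fell (median 1.45). Tenascin-C (Tnc) rose from 20.7 ± 7.85 to 294 ± 51.8 (log2 change 3.85), osteopontin (Spp1) from 705 ± 365 to 9498 ± 1900.4, Tgfbi from 699.5 ± 102 to 1859 ± 44.5 and Ccn2 from 125 ± 28.9 to 548 ± 71.4. Loxl4 and Ccn6 were named after their values were seen.

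Transcripts of receptors for these proteins rose in 9 of 11 cases and fell in none (median 0.55). The integrin chain Itgb1 rose from 3838 ± 217 to 5428 ± 131, the fibronectin receptor chain Itga5 from 594 ± 32.5 to 1006 ± 150.4 and Itgav, a partner chain in receptors for fibronectin and periostin, from 489 ± 31.9 to 807 ± 116. Cd36, a thrombospondin-1 receptor that also takes up fatty acids, rose from 1489 ± 438 to 3214 ± 368.

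**Figure D4:**
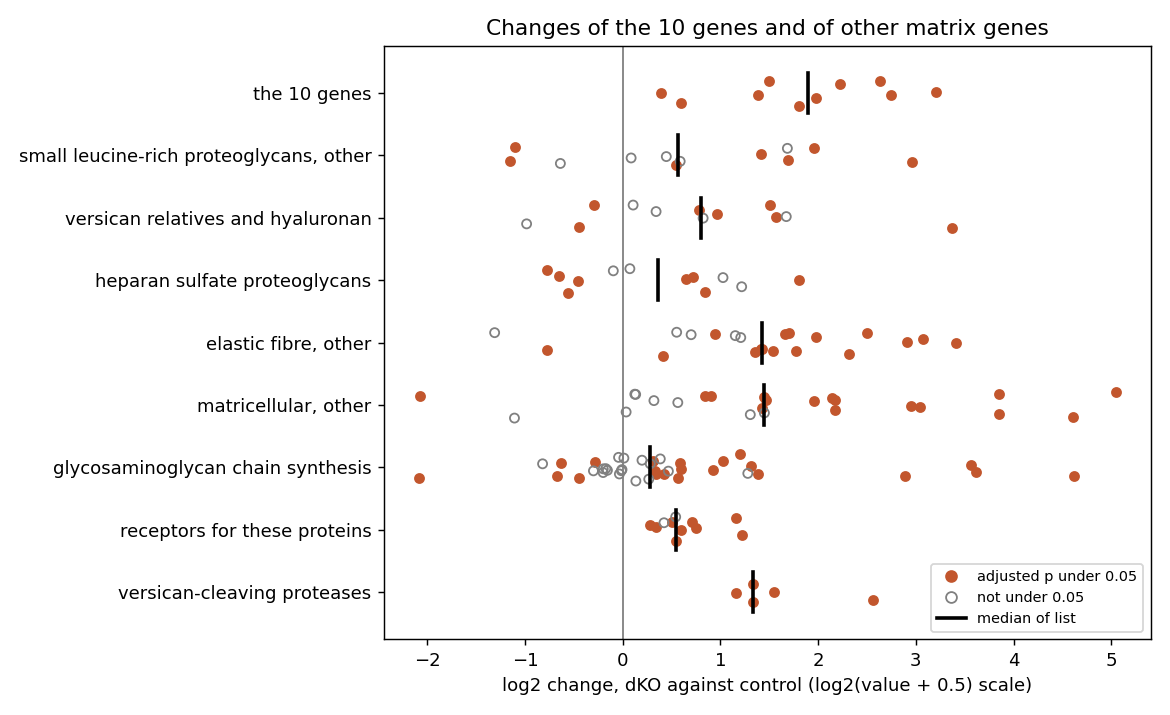
Log2 change of each tested gene, dKO against control, for the 10 genes and 8 lists of other matrix genes; filled points have a limma adjusted p under 0.05, open points do not, and bars mark the median of each list. All 10 genes lie above 0, with a median of 1.89, while heparan sulfate proteoglycans lie on both sides of 0.

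Cell type markers moved with the matrix genes in part. Over all genes tested 21.2% were called higher and 17.0% lower, and 1 of 6 or 1 of 5 markers called is near that share. Hepatocyte markers summed to 1115647 to 1236462 normalised read counts in controls and 1147193 to 1194165 in dKO livers, with 1 of 6 higher and 1 lower, and Alb and Apob called neither way. Of 10 stellate cell markers 7 rose and 0 fell, and their summed level ranged from 2263 to 3159 in controls and from 4429 to 5319 in dKO livers. Rgs5 went from 586.5 ± 29.2 to 1115 ± 204, while Reln stood at 803 ± 152 and 954 ± 213 (limma adjusted p = 0.273). Of 8 portal fibroblast markers 7 rose, and the sum ranged from 1343 to 2157 and from 3411 to 4223. Gas6 rose from 1354 ± 206 to 2688 ± 332 and Dpt from 158 ± 108 to 476 ± 70.3.

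Markers of smooth muscle and myofibroblasts (1 of 6 higher, sums of 210 to 1494 and 735 to 1583) and of mesothelial cells (1 of 6 higher, 46.3 to 398 and 148 to 365) overlapped between the groups. Their median changes, 0.14 and 0.17, turned to -0.28 and -0.25 with quantile normalization. Tagln rose from 207 ± 99.6 to 502 ± 111, and Acta2, the actin of activated stellate cells and smooth muscle, stood at 222.5 ± 200.4 and 367 ± 106 (limma adjusted p = 0.145, or 0.021 without control 4). Msln stood at 38.0 ± 35.0 and 81.8 ± 30.3 (limma adjusted p = 0.0533, or 0.00344 without control 4) and Gpm6a at 42.9 ± 24.5 and 47.6 ± 17.5.

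Macrophage markers rose in 5 of 6 cases, with sums of 6743 to 10121 and 11802 to 18199, Cd5l from 2162 ± 238 to 4130 ± 1192 and Lyz2 from 1920.4 ± 1695 to 4417 ± 938 with overlap, a call lost with DESeq2 (adjusted p = 0.0936) and with robust limma variances (0.0699). All 4 bile duct markers rose (sums of 158 to 276 and 315 to 581), among them Sox9, from 108 ± 11.7 to 202 ± 57.1, and Krt19, with overlap. The Krt19 call was lost with quantile normalization, with robust variances and without control 2, control 3, dKO 1 or dKO 4 (limma adjusted p from 0.066 to 0.0894). Endothelial markers went both ways, 3 of 7 higher and 2 lower (sums of 4482 to 5727 and 5633 to 7820), with Stab2 and Kdr called neither way. Of 5 platelet and megakaryocyte markers, which can carry thrombospondin-1 and SPARC, 1 rose, Pf4, and the sums were 97.5 to 239 and 175 to 271. The Pf4 call was lost with edgeR, quantile normalization and robust variances and without control 1, control 2, dKO 2 or dKO 4 (adjusted p from 0.0669 with robust limma variances to 0.0816 without control 2). Itga2b stood at 89.0 ± 22.2 and 119 ± 16.4. No marker list had a defining gene at 0 in all livers. The part of these cell types in the rise of the 10 transcripts was not tested, and whole-liver values do not tell which cells hold the RNA.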

How the data were processed

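Liver RNA of 4 control and 4 dKO mice was sequenced, and each library is 1 mouse by the labels. The submitters' processing notes name build mm10 and the tools HISAT2 2.0.5, fastp, DESeq2 and featureCounts 1.5.0-p3, without their roles. Strand setting, annotation and filters: not given in the sources used here, so overlapping and antisense genes can share reads. The deposited signal is named FPKM, but within each library 100% of the values passed as whole multiples of 1 step. The tolerance was 0.001 of a whole number at low counts. Above these it widened in proportion to the count, so genes of very many reads pass easily. The authors' values were therefore taken as read counts per gene over 1 size factor for the library, with no division by gene length. The log-scale test planned for FPKM was kept. Division by the steps gave back whole reads, used for edgeR and DESeq2. Floors of 3 reads cover counting error only.

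Genes with a mean of 0.5 or more (20055 of 22052; 21796 identifiers matched a symbol) were tested as log2(value + 0.5) in R 4.3.3 with limma 3.58.1 and a trended eBayes, group only, 2-sided, with Benjamini-Hochberg adjustment over all genes tested and a threshold of 0.05. Pairs of genes were tested by exact permutation over the 70 assignments of the livers, 2-sided. Relative fits subtracted the log2 value of Dcn or Fn1, without a trend. Limma was tested on simulated data. Alternatives were pseudocounts of 0.1 and 1, a filter at 10 or none, quantile normalization, equal library totals, robust variances, edgeR 4.0.16, DESeq2 1.42.0, a replicate block and leaving out each liver. Named genes were the 10, the targeted genes, up to 4 called genes with the smallest adjusted p per matrix list, the 2 highest markers per cell list and the 5 most alike profiles. The genes and lists were chosen with earlier results of these data known.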

Additional observations from a re-analysis of the deposited data

Results flagged for a closer look

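In 12 of the 124 groups of 4 livers examined, 1 liver lay far from the other 3 by Dixon's criterion; chance flags about 1 in 20 groups, and genes that move together are not independent. Of these, 5 were control 4, above the other controls: Thbs1 at 233 (others 25.6 to 54.4), Fbn1 at 284 (79.9 to 105), Lyz2 at 4457 (929 to 1230.2), Spp1 at 1247 (476 to 601) and Tagln at 356 (143 to 165). In the dKO group, dKO 1 was low for Vcan at 46.3 (others 88.6 to 94.0), Efemp2 at 159 (208 to 215) and Itgav at 635 (842 to 880.2), and dKO 4 was high for Sdc4 at 7915 (6400 to 6579) and Zfp36l1 at 267 (209 to 214). Control 3 was low for Zfp36l2 at 997 (others 1722 to 1820). Control 2 was listed at 0 for Hs6st2, where the others held 1 read each.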

How the results depend on the processing

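None of the 10 genes changed direction under the alternatives run. Among the other named genes Gpm6a did, a gene not called in any of these fits, with a log2 change of 0.25 that became -0.17 with quantile normalization and lay between -0.049 (without control 3) and 0.58 (without control 4) when each liver was left out; the cause was not tested. Of 180 values of the 10 genes under alternatives, 172 kept their side of the threshold and 8 lost it, all for Fn1, Eln and Vcan. DESeq2 and robust variances each called 8 of the 10 and edgeR 9. The median log2 change of the 10 was 1.76 with DESeq2 and 1.77 with edgeR, and it ranged from 1.77 to 2.07 when each liver was left out in turn. Over the named genes outside the 10, 873 further values kept their direction and their side of the threshold, 19 lost the call and 4 gained it. Quantile normalization moved the median of all tested genes from 0.03 to -0.08, and the 10 genes were again all called, with a median of 1.92. Relative to Dcn or to Fn1, picked afterwards and with the smallest changes of the 10, limma called 6 of 9 genes in each case. The planned exact permutation test called 0 of 45 pairs. Same-numbered mice did not deviate together (r = 0.03, -0.07, 0.04 and 0.08). With the replicate number as a block, all 10 genes and 90 other matrix genes were called, against 89. For pairs of genes the block allows no p under 0.125, so it cannot speak on them. Genes of few reads, among them Vcan, Nyx, Tnfaip6 and Hs6st2, are limited by depth.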
